A study of Mus musculus with 10 samples.

Results

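The genes described here encode the proteins of the mitochondrial ribosome, measured in cultured splenic B cells that lacked or retained Irf4, a transcription factor that B cells induce on activation. Members were taken by name: every probe set with a single platform symbol that starts with Mrpl or Mrps followed by a digit. This gave 156 probe sets of 76 genes, out of 18193 genes with a probe set of their own, with 47 genes of the large subunit (Mrpl) and 29 of the small subunit (Mrps). Each gene was represented by the probe set with the highest mean signal over all arrays. Mrpl30 and Mrpl53 had only probe sets shared with another gene's symbol and were not analysed here.

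There were 5 Irf4-/- and 5 Irf4+/+ samples, each hybridised to 1 array. Both genotypes came from C57BL/6 littermates aged 12 weeks. Splenic cells were depleted of non-B cells with magnetic beads, then stimulated for 3 days with an antibody against CD40 together with IL-4 at 20 ng/ml. The labels name neither the Irf4 exons that were disrupted nor the origin of the 5 samples of a genotype, and the p-values below therefore reflect variation among these arrays only, possibly of technical origin. Irf4 transcript signal was 2792 ± 128 in Irf4-/- cells and 3761 ± 211 in Irf4+/+ cells (SD, n = 5 each; log2 fold change -0.43, adjusted p = 5.01e-06 from limma), and the position of its probes relative to the deletion is not known. Irf4 lies on mouse chromosome 13, and the nearest member on that chromosome, Mrpl32, lies 494 genes away. All values are MAS5 signals in arbitrary linear units, and signals of different probe sets are not on a common scale. Fold changes are Irf4-/- over Irf4+/+ of log2(signal + 7.9), and a gene was called at a Benjamini-Hochberg adjusted p under 0.05 in a limma fit over 12253 genes.

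The mitochondrial ribosome translates the few messages that remain in mitochondrial DNA, all of which encode subunits of the respiratory chain and the ATP synthase. Its RNAs are made in the mitochondrion, while all of its proteins are encoded in the nucleus, made in the cytosol and imported. The small subunit holds the decoding centre, and the large subunit holds the peptidyl transferase centre and the exit tunnel that faces the inner membrane. Some of its proteins descend from bacterial ribosomal proteins and others are found only in mitochondria. Lymphocytes enlarge their mitochondrial mass when they are activated.

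Most mitochondrial ribosomal protein transcripts were lower in Irf4-/- cells, by small amounts. All 76 genes passed the filter on dim signals. At an adjusted p under 0.05 in limma, 40 members fell and 4 rose, and 32 were not called. Among all genes tested, 23.9% were called lower and 23.3% higher, while 52.6% of the members were called lower and 5.26% higher. The median log2 fold change of the members was -0.22, against 0.00 for all genes, and 58 of the 76 values were negative. A fall of at least 1.5-fold was seen in 5 members, and 8.4% of all genes fell that far. A rise of at least 1.5-fold was seen in 2 members, and 11.4% of all genes rose that far. In bulk samples, fewer cells of a type and less RNA per cell cannot be told apart.

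The subunits had similar counts. In the large subunit 25 of 47 genes fell, 1 rose and 21 were not called, with a median of -0.22 and a range from -0.71 to 0.33. In the small subunit 15 of 29 genes fell, 3 rose and 11 were not called, with a median of -0.23 and a wider range from -1.13 to 0.74. For 13 large subunit and 12 small subunit genes, the highest Irf4-/- array was under the lowest Irf4+/+ array, an arrangement that 18.3% of all genes showed. The opposite arrangement held for 2 small subunit genes and for 17.4% of all genes. Symbols and structure differ for a few proteins: Mrps30 and Mrps18a sit in the large subunit, and Mrps36 is now placed in the 2-oxoglutarate dehydrogenase complex. With those 3 genes moved or dropped, 27 of 49 large subunit and 13 of 26 small subunit genes fell, and 1 and 3 rose.

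**Figure D1:**
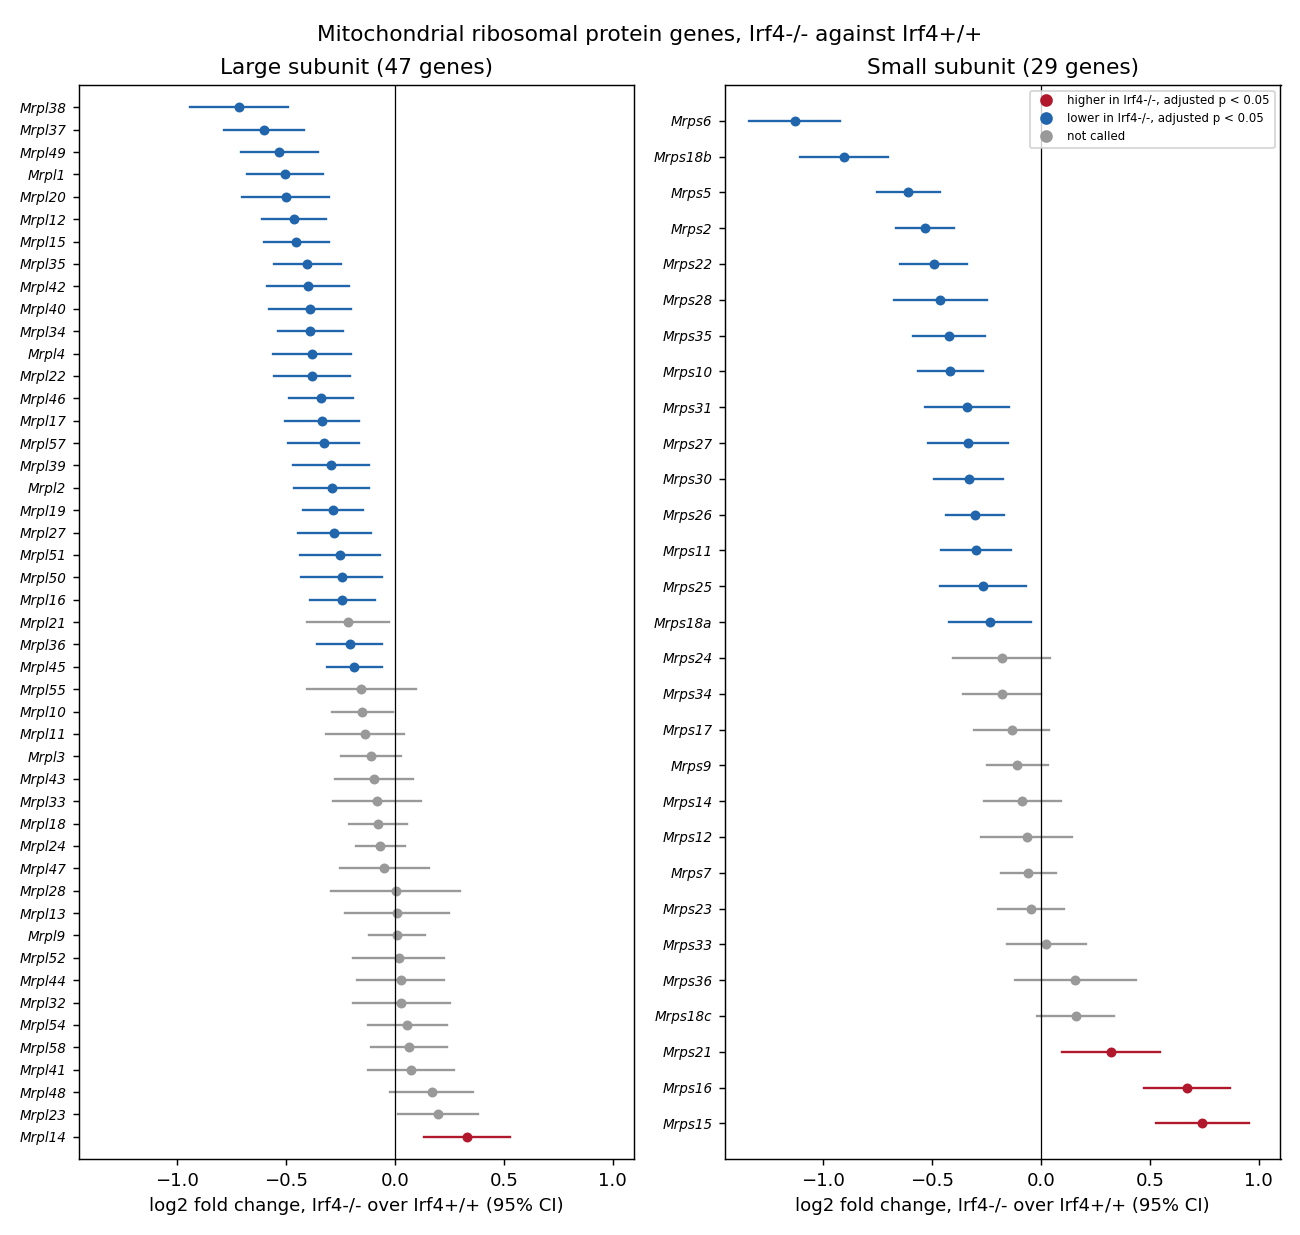
Log2 fold change of signal, Irf4-/- over Irf4+/+, of each mitochondrial ribosomal protein gene (points) with its 95% confidence interval (bars), the large subunit on the left and the small subunit on the right. Blue points are the 25 and 15 genes called lower in Irf4-/- cells, red points the 1 and 3 called higher, and grey points the rest, with Mrps6 at -1.13 and Mrps15 at 0.74 at the extremes.

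Promoter sequence was looked at for motifs known from genes of mitochondria. RefSeq (GRCm38.p6) gave a promoter window, 250 bases before to 50 after the start site, for 67 of the 76 genes. The stretches shown are each the 100 bases before the start site (the most upstream one where RefSeq gives several), for the 2 members that fell most, 3 that fell and carry a motif there, and the 2 that rose most. Capitals mark a motif on either strand: CCGGAAG, bound by ETS factors, and CACGTG, the E-box bound by MYC and related factors.
Mrps6, chr16:92058236-92058335, plus strand: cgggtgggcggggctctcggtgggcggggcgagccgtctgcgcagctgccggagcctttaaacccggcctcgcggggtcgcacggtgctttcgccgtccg
Mrps18b, chr17:35916441-35916540, minus strand: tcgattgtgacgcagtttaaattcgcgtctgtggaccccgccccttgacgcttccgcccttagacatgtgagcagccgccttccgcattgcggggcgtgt
Mrps22, chr9:98601680-98601779, minus strand: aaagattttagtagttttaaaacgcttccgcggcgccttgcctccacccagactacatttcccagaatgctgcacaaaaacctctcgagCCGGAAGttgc
Mrps27, chr13:99344686-99344785, plus strand: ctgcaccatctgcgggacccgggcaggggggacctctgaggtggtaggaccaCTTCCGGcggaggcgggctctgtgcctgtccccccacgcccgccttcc
Mrpl20, chr4:155802778-155802877, plus strand: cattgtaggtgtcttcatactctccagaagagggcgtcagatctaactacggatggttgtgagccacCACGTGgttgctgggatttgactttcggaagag
Mrps15, chr4:126046828-126046927, plus strand: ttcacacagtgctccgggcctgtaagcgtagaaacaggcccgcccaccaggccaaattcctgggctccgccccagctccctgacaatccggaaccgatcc
Mrps16, chr14:20393635-20393734, minus strand: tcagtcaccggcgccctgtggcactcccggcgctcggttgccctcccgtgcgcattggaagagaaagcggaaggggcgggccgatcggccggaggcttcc

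The ETS letters CCGGAAG were in 34.2% of the 73 windows of members, against 16.8% of the 12669 windows of genes tested on the arrays and 8.86% of all 32851 windows. They were in the windows of 11 of 34 members that fell, 2 of 4 that rose and 12 of 29 that were not called. In Mrps22 and Mrps27 they begin 11 and 48 bases before the start site. Outside the stretches shown they are also in the window of Mrps18b, 44 bases after the start, and at 2 positions in the window of the other start site of Mrps16, 74 bases before and 25 after it. The longer YY1 motif was in the windows of 6 members (8.22% of windows, against 1.69% for tested genes), all 6 of which fell. The E-box was in 9.59% of windows of members, against 9.7%, but overlapping windows of Mrpl2 held the same site. Counted by gene, it was in 5 of 67 members and in 1146 of 9925 tested genes. Of the 5 members 4 fell, among them Mrpl20 with a match 33 bases before its start. The palindromic NRF1 motif was in the windows of 3 members (4.11%, against 2%). Both strands were searched, and a match is a description of the letters only.

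The largest fall was that of Mrps6, the counterpart of a bacterial protein of the small subunit platform. Its signal was 814.1, 717.3, 766.2, 623.6 and 813.1 in Irf4-/- samples, against 1960.5, 1443.8, 1758.8, 1352.7 and 1745.3 in Irf4+/+ samples. The highest Irf4-/- array lay well below the lowest Irf4+/+ array. The means were 746.9 ± 79.6 and 1652 ± 249 (SD, n = 5 each), a 2.19-fold difference (log2 fold change -1.13, SE 0.0987, limma adjusted p = 8.11e-08), and a further probe set gave -0.88. Mrps6 was the only member that differed by at least 2-fold.

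Mrps18b, 1 of 3 mammalian descendants of bacterial S18, fell 1.87-fold. Its signal was 394.6, 488.6, 435.5, 464 and 581.6 in Irf4-/- samples, against 810.2, 883.4, 900.9, 817.5 and 1024.3 in Irf4+/+ samples, with no overlap (log2 fold change -0.90, SE 0.0945, limma adjusted p = 6.65e-07). Mrps5, the counterpart of the S5 protein near the site where messenger RNA enters, had 321.7, 361.4, 380.4, 357.5 and 351.1 in Irf4-/- samples, against 531.1, 547.2, 519.4, 529.5 and 595.3 in Irf4+/+ samples. Both groups were tight and did not overlap, and the difference was 1.53-fold (log2 fold change -0.61, SE 0.0688, limma adjusted p = 1.61e-06). Mrps2, the S2 counterpart, had 755.4, 773.6, 746.1, 740.9 and 787.3 in Irf4-/- samples, against 1049.7, 1168.5, 1181.9, 1149.5 and 978.4 in Irf4+/+ samples. Again no Irf4-/- array reached the Irf4+/+ range (log2 fold change -0.53, limma adjusted p = 2.61e-06).

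Among small subunit proteins without a bacterial counterpart, Mrps22, in which mutations cause human mitochondrial disease, had 792.7, 790.6, 702.5, 720.4 and 845.9 in Irf4-/- samples, against 1225.6, 1052.7, 965.9, 1118.6 and 1077.5 in Irf4+/+ samples. The groups were apart (log2 fold change -0.49, SE 0.0721, limma adjusted p = 2.7e-05). Mrps35, also found only in mitochondria, fell to 607.1 ± 49.1 in Irf4-/- cells, against 816.9 ± 78.1 in Irf4+/+ cells (SD, n = 5 each; log2 fold change -0.42, limma adjusted p = 0.000268), without overlap. Mrps27, which has pentatricopeptide repeats that bind RNA, fell to 287.1 ± 23.5, against 364.7 ± 38.1 (log2 fold change -0.33, limma adjusted p = 0.00439). Its highest Irf4-/- array, at 318, lay just under its lowest Irf4+/+ array, at 318.8. Mrps28, the counterpart of bacterial S1, fell as well, to 547.5 ± 77.3 in Irf4-/- cells, against 755.1 ± 89.1 in Irf4+/+ cells (log2 fold change -0.46, limma adjusted p = 0.00114), and its groups overlapped by 1 sample of each genotype.

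In the small subunit 3 genes rose. Mrps15, the counterpart of bacterial S15, a protein that binds ribosomal RNA early in assembly, had 1873.9, 1873.9, 1866, 1293.6 and 1744.9 in Irf4-/- samples, against 1107.4, 874.3, 1142.2, 952 and 1059.1 in Irf4+/+ samples. Even the fourth Irf4-/- sample, the lowest, was above all Irf4+/+ samples, and the difference was 1.67-fold (log2 fold change 0.74, SE 0.1, limma adjusted p = 1.19e-05). The other 2 Mrps15 probe sets gave 1.22 and 0.75.

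Mrps16, the S16 counterpart and a human disease gene, had 2002.6, 1941.1, 1983.8, 1624.2 and 2001.1 in Irf4-/- samples, against 1407.8, 934.2, 1298.6, 1215.3 and 1170.4 in Irf4+/+ samples. The groups did not overlap (1.59-fold, log2 fold change 0.67, SE 0.0934, limma adjusted p = 1.62e-05). Mrps21, the S21 counterpart, had 1077.2, 1131.9, 1038.4, 792.8 and 1066.3 in Irf4-/- samples, against 952.4, 645.9, 773.9, 826.3 and 881.4 in Irf4+/+ samples. Here the fourth Irf4-/- sample lay inside the Irf4+/+ range (log2 fold change 0.32, SE 0.105, limma adjusted p = 0.0185). The rise of Mrps21 was not called when the mean of its probe sets was used (0.09, adjusted p = 0.479), nor with array medians set equal (0.26, adjusted p = 0.0722), nor without the second Irf4-/- or the second Irf4+/+ sample (adjusted p = 0.0533 and 0.0529).

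Other small subunit genes differed little. Mrps12, which lies at the decoding centre, had 644.1 ± 72.2 in Irf4-/- cells and 676.7 ± 95.2 in Irf4+/+ cells (SD, n = 5 each). Its log2 fold change was -0.07, with a 95% interval from -0.27 to 0.14 (limma adjusted p = 0.625). Mrps14, the S14 counterpart, had 2080 ± 264 and 2200 ± 199 in the same order, with an interval from -0.26 to 0.09 (limma adjusted p = 0.437).

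**Figure D2:**
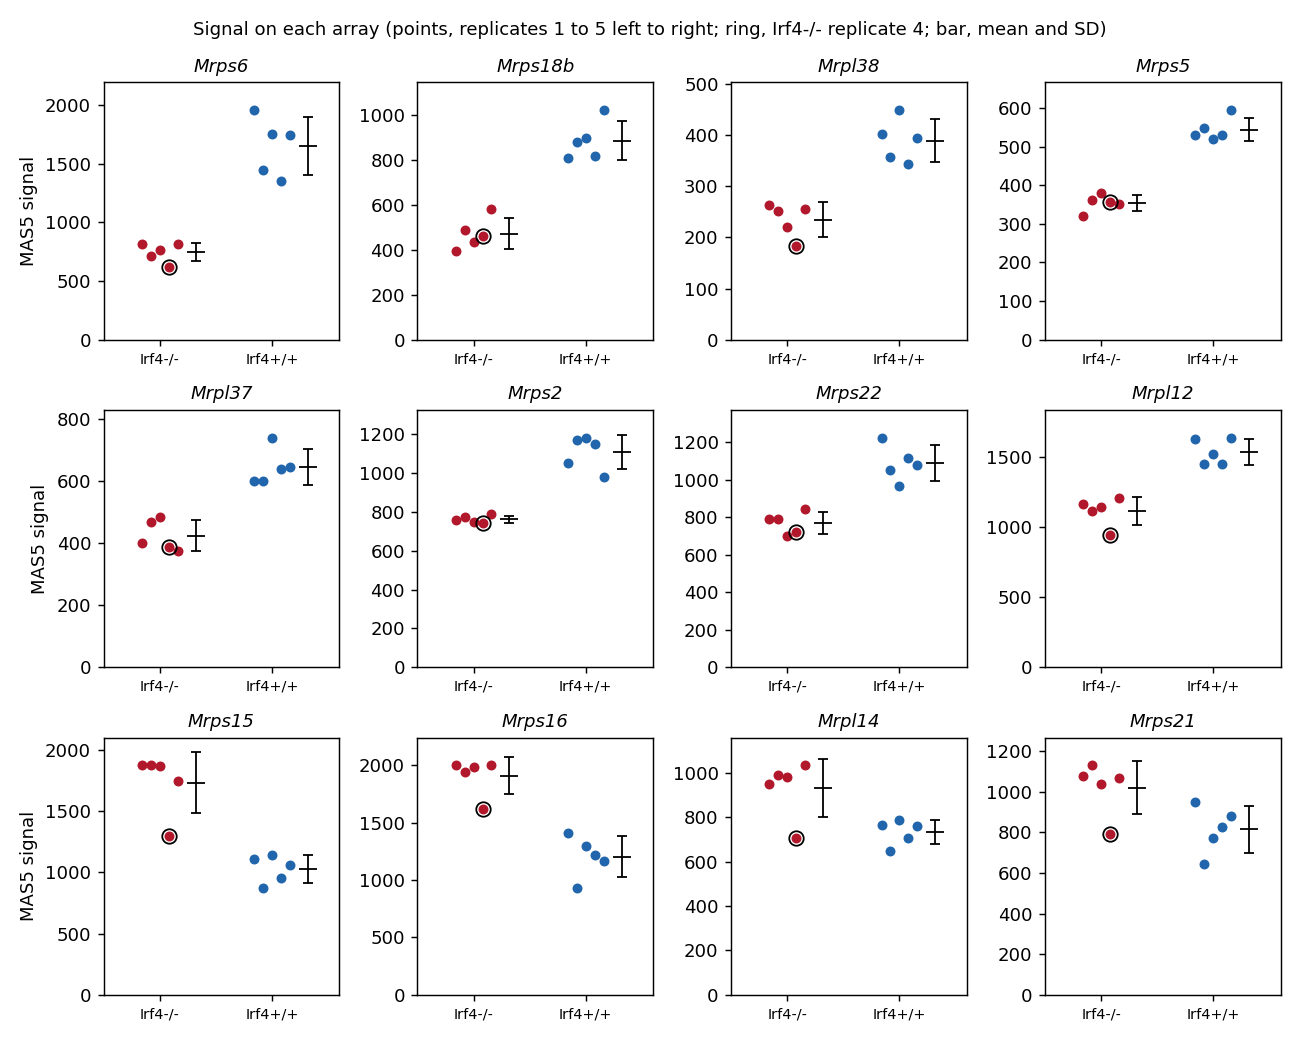
Signal in arbitrary units of single arrays, with Irf4-/- samples left of Irf4+/+ samples in each panel, for 8 members that fell and the 4 that rose; points run from replicate 1 to 5, a ring marks Irf4-/- replicate 4, and the bar beside each group gives its mean and SD. For Mrps6 the Irf4-/- points lie between 623.6 and 814.1 and the Irf4+/+ points between 1352.7 and 1960.5, while for Mrps15 and Mrps16 the order is the opposite.

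In the large subunit, Mrpl38 and Mrpl37 fell most, and both are proteins found only in mitochondria. Mrpl38, of the central protuberance, had 263, 252.4, 219.9, 183 and 255.6 in Irf4-/- samples, against 401.9, 356.4, 449.1, 343.8 and 393.3 in Irf4+/+ samples, a 1.64-fold difference (log2 fold change -0.71, SE 0.105, limma adjusted p = 2.82e-05). Mrpl37 had 401.6, 470.1, 485.8, 389.4 and 374.7 in Irf4-/- samples, against 600, 601.6, 741.3, 639 and 647.7 in Irf4+/+ samples (log2 fold change -0.60, SE 0.086, limma adjusted p = 2.16e-05). Neither gene had overlapping groups.

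Mrpl12, whose bacterial counterpart L7/L12 forms the flexible stalk that recruits translation factors, had 1165.2, 1110.6, 1142.7, 944.1 and 1202.5 in Irf4-/- samples, against 1624.5, 1444, 1520.9, 1444.8 and 1636 in Irf4+/+ samples. The groups were separate (log2 fold change -0.46, SE 0.0691, limma adjusted p = 3.35e-05). Mrpl15, the L15 counterpart, had 1569.7, 1450.6, 1535.6, 1351.4 and 1790.1 in Irf4-/- samples, against 2186.5, 1924.4, 2256.9, 2061.6 and 2081.1 in Irf4+/+ samples. It too was lower without overlap (log2 fold change -0.45, limma adjusted p = 5.6e-05), and its 8 probe sets all gave negative values. With only probe sets whose names lack the suffixes _a, _s and _x, its value was -0.15 (limma adjusted p = 0.386). That value came from a dim probe set (143 ± 27 in Irf4-/- cells, 158.8 ± 22.2 in Irf4+/+ cells). The Mrpl15 probe sets left out for the suffix _a gave -0.44 and -0.36. Mrpl20, the counterpart of L20, an assembly protein in bacteria, had 841.2, 856.1, 824.5, 754.4 and 1126.1 in Irf4-/- samples, against 1412.6, 1089.1, 1187.1, 1245.4 and 1277.7 in Irf4+/+ samples. The fifth Irf4-/- sample lay in the Irf4+/+ range, and the gene was called lower (log2 fold change -0.50, SE 0.0947, limma adjusted p = 0.000332).

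Mrpl49 and Mrpl1 were called lower from their brightest probe set only. Mrpl49, found only in mitochondria, had 345.3 ± 40.9 in Irf4-/- cells and 499.4 ± 14.4 in Irf4+/+ cells (SD, n = 5 each; log2 fold change -0.53, limma adjusted p = 5.34e-05), and its other probe set gave -0.05 (adjusted p = 0.727). Mrpl1, the counterpart of the L1 protein next to the exit site of transfer RNA, had 310.6 ± 29.8 and 442.7 ± 34.3 in the same order (log2 fold change -0.50, limma adjusted p = 8.45e-05), and its other tested probe set gave 0.09 (adjusted p = 0.618). Mrpl39 and Mrpl51, both found only in mitochondria, fell less. Mrpl39 averaged 2322 ± 269 in Irf4-/- cells and 2846 ± 280 in Irf4+/+ cells (log2 fold change -0.29, limma adjusted p = 0.00703). Mrpl51 averaged 2416 ± 208 and 2892 ± 424 in the same order (log2 fold change -0.25, limma adjusted p = 0.0236), and both genes had overlapping groups. Mrpl51 was not called without the fourth Irf4-/- or the first Irf4+/+ sample (adjusted p = 0.0596 and 0.054).

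Mrpl14, the counterpart of L14 at the face that meets the small subunit, was the large subunit gene that rose. It had 949.3, 988.1, 978.9, 706.5 and 1034.3 in Irf4-/- samples, against 762.5, 647.8, 787.9, 708.3 and 759.1 in Irf4+/+ samples. The fourth Irf4-/- sample was within the Irf4+/+ range and the other 4 were above it (log2 fold change 0.33, SE 0.0929, limma adjusted p = 0.00709). Mrpl45, which helps to hold the exit tunnel against the inner membrane, fell slightly, to 702.6 ± 33.9 in Irf4-/- cells, against 800.3 ± 38.2 in Irf4+/+ cells (log2 fold change -0.19, limma adjusted p = 0.0171).

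Several members with known roles were not called. Mrpl41, reported to act in apoptosis as well as in the ribosome, had 1002 ± 137 in Irf4-/- cells and 947.6 ± 97.2 in Irf4+/+ cells (95% interval of the log2 fold change from -0.12 to 0.27, limma adjusted p = 0.556). Mrpl3 and Mrpl44 are human disease genes, with log2 fold changes of -0.11 (interval -0.25 to 0.03) and 0.03 (interval -0.17 to 0.23). Mrps30, also linked to apoptosis, was called: 881.8 ± 86.9 in Irf4-/- cells and 1109 ± 78 in Irf4+/+ cells, without overlap (log2 fold change -0.33, limma adjusted p = 0.00157).

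Transcripts of proteins that sit together did not all shift by the same amount. In the stalk, Mrpl10 had 744.6 ± 46.7 in Irf4-/- cells and 826.4 ± 56.2 in Irf4+/+ cells (log2 fold change -0.15, limma adjusted p = 0.0767), and was called lower without the fourth Irf4-/- or the first Irf4+/+ sample (adjusted p = 0.0298 and 0.0272). Mrpl11 at the base of the stalk had 1023 ± 123 and 1120 ± 89 in the same order (-0.14, adjusted p = 0.21). Ratios within an array showed unequal change: the log2 ratio of Mrpl12 to Mrpl10 differed by -0.31 (Irf4-/- minus Irf4+/+), and that of Mrpl12 to Mrpl11 by -0.33 (exact two-sided permutation p = 0.00794 each, the smallest that 5 against 5 allows, adjusted p = 0.00952 over 6 ratios). The ratio of Mrpl11 to Mrpl10 differed by 0.01 (exact permutation p = 0.929).

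The 3 descendants of bacterial S18 occupy different places, Mrps18a in the large subunit and Mrps18b and Mrps18c in the small. Mrps18b fell as given above. Mrps18a had 773.4 ± 89.2 in Irf4-/- cells and 909.2 ± 101 in Irf4+/+ cells (SD, n = 5 each; log2 fold change -0.23, limma adjusted p = 0.0409). Mrps18c, which takes the place of bacterial S18, had 1501 ± 179 and 1340 ± 123 in the same order (0.16, adjusted p = 0.13). All 3 ratios among them differed between the genotypes: Mrps18b to Mrps18c by -1.06, Mrps18b to Mrps18a by -0.67 and Mrps18a to Mrps18c by -0.39 on the log2 scale (exact two-sided permutation p = 0.00794 and adjusted p = 0.00952 for each). The call of Mrps18a was lost without any of the third, the fourth or the fifth Irf4-/- sample, or the first, the third or the fifth Irf4+/+ sample (limma adjusted p = 0.0516 to 0.115).

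Counts by origin are given as a description, and the difference between them was not tested. In the large subunit, 11 of 18 mitochondria-specific genes fell (median -0.25), and 14 of 29 with a bacterial counterpart fell and 1 rose (median -0.21). In the small subunit, 7 of 10 mitochondria-specific genes fell (median -0.32), and 8 of 18 with a bacterial counterpart fell and 3 rose (median -0.16). Subunits follow the symbols here, so these counts hold Mrps30 (mitochondria-specific) and Mrps18a (bacterial counterpart), both called lower. Mrps36 was left out, and Mrps18a, Mrps18b and Mrps18c were all classed as having a bacterial counterpart. All 4 genes that rose, Mrps15, Mrps16, Mrps21 and Mrpl14, have a bacterial counterpart, which is the larger class in both subunits. Among all genes tested, 23.9% were called lower and 23.3% higher. By place, 2 short lists were chosen by hand and may leave out members. Of 6 genes of the central protuberance (Mrpl18, Mrpl27, Mrpl38, Mrpl40, Mrpl46 and Mrpl48) 4 fell. Of 6 around the exit tunnel (Mrpl4, Mrpl22, Mrpl23, Mrpl24, Mrpl45 and Mrpl47) 3 fell.

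Counting probe sets rather than genes, 146 of the 156 passed the filter, 58 were called lower and 6 higher. Over all probe sets tested, 21.4% were lower and 21.1% higher. The 39 genes with more than 1 tested probe set had 70 further ones, of which 18 were called lower, 2 higher, and 44 had the sign of the brightest probe set. No gene had probe sets called in opposite directions. For Mrpl13 and Mrpl28, picked after their values were seen, the brightest probe set differed from the others. Mrpl13 gave 0.01 from its brightest probe set and -0.47, -0.67 and -0.25 from the other 3. Mrpl28 gave 0.00 from its brightest and -0.61 and -0.55 from the other 2. Mrpl35, also picked after its values were seen, was called lower from its brightest probe set (-0.40, limma adjusted p = 0.000238), and its 2 dim probe sets gave 0.05 and 0.04 (adjusted p = 0.868 and 0.898).

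**Figure D3:**
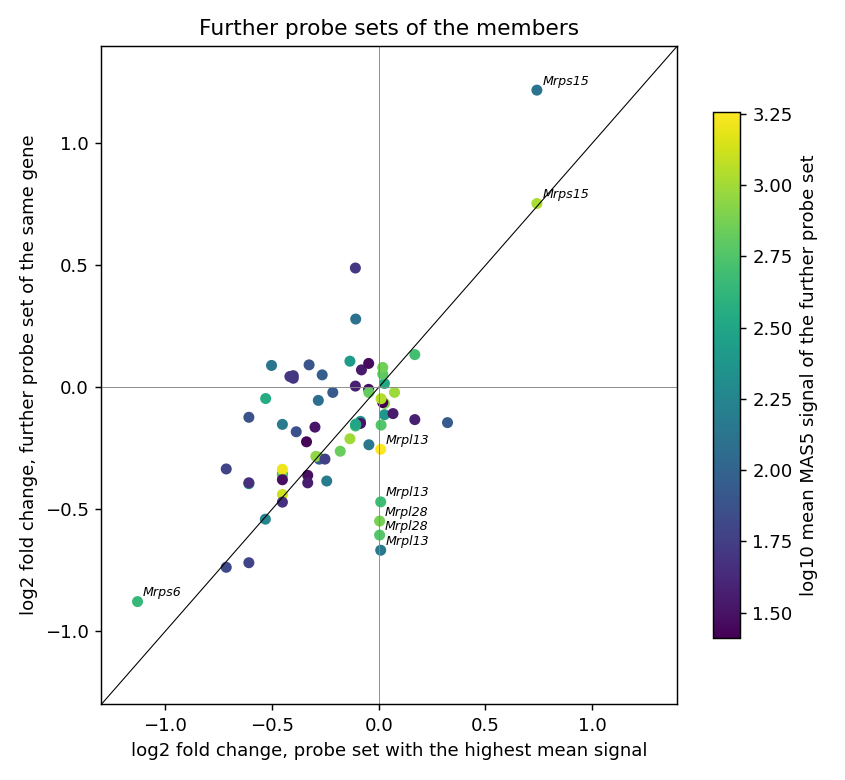
Log2 fold change, Irf4-/- over Irf4+/+, of the 70 further tested probe sets of members (vertical axis) against that of the brightest probe set of the same gene (horizontal axis); each point is a probe set, coloured by the log10 of its mean signal, and the diagonal marks equal values. In 44 of the 70 the signs agree, the further Mrps15 probe sets lie at 1.22 and 0.75, and those of Mrpl13 and Mrpl28 lie between -0.67 and -0.25.

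The fourth Irf4-/- sample stood apart from the other Irf4-/- samples. It was the lowest of the 5 for 60 of the 76 members, and the other 4 samples were lowest for 3 to 5 members each. Relative to the Irf4+/+ mean, the members' average log2 signal was -0.12, -0.18, -0.21, -0.39 and -0.11 in the Irf4-/- samples, against 0.09, -0.12, 0.01, -0.03 and 0.06 in the Irf4+/+ samples. The second Irf4+/+ sample lay within the Irf4-/- range. Over all tested genes the fourth Irf4-/- sample averaged 0.05, inside the range of the other Irf4-/- samples (0.02 to 0.06). The same sample averaged -0.14 over cytosolic ribosomal protein genes and -0.25 over nuclear genes for respiratory chain and ATP synthase subunits. With quantile normalization these averages were -0.06 and -0.21. Without the fourth Irf4-/- sample, 23 large subunit genes fell and 2 rose (median -0.20), and 13 small subunit genes fell and 4 rose (median -0.16). Of all 12253 genes, 2906 were then lower and 2794 higher. The calls of 5 members that fell were lost (Mrpl36, Mrpl50, Mrpl51, Mrps18a and Mrps25), and 3 calls were added. These were the fall of Mrpl10, the rise of Mrps18c (0.22, adjusted p = 0.0298) and that of Mrpl23, a protein of the exit tunnel region (0.20 and adjusted p = 0.0688 with all arrays). Mrpl23 and the lost calls of Mrpl36, Mrpl50 and Mrps25 were singled out after their values were seen. Without that sample the rises of Mrps15, Mrps16, Mrpl14 and Mrps21 were 0.84, 0.73, 0.43 and 0.41.

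**Figure D4:**
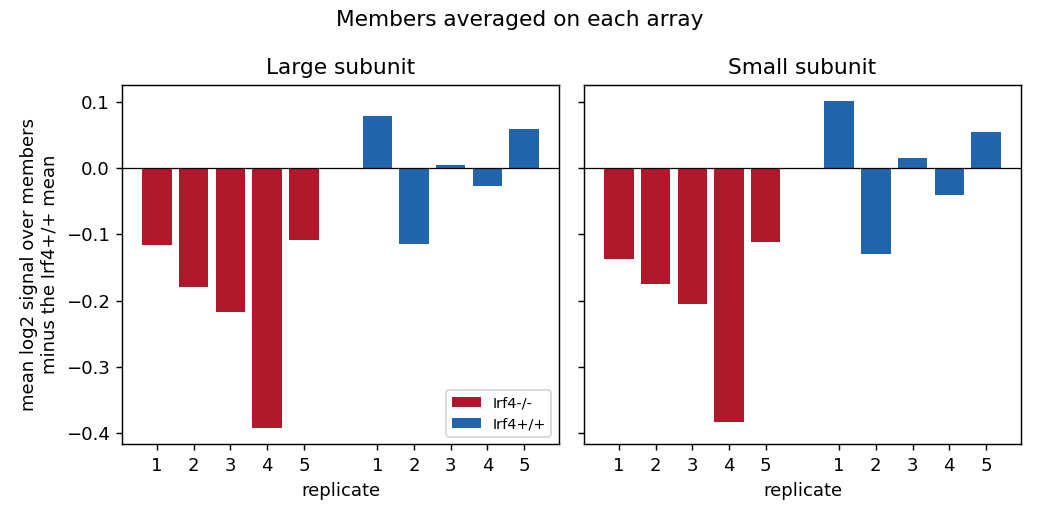
Average log2 signal of the large subunit members (left panel) and the small subunit members (right panel) on each array, minus the mean of the Irf4+/+ arrays; each bar is 1 array, with Irf4-/- arrays (red) left of Irf4+/+ arrays (blue). The fourth Irf4-/- array is the lowest in both panels, at -0.39 and -0.38, and the second Irf4+/+ array, at -0.11 and -0.13, lies within the Irf4-/- range.

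Other genes of mitochondrial gene expression were counted in the same fit, where 23.9% of all genes were lower and 23.3% higher. In each list the genes named are the called ones with the smallest p-values. Of 4 further genes for ribosomal proteins with other symbols, 3 fell. They were Ptcd3, for a pentatricopeptide protein of the small subunit (-0.79, limma adjusted p = 1.09e-07), Chchd1 (-0.34) and Dap3, for a GTP-binding small subunit protein (-0.26). Among 13 translation factor genes 5 fell (38.5%) and 1 rose (median -0.03, and 0.04 without the fourth Irf4-/- sample). They included Gfm1, the elongation factor that moves the ribosome along (-0.60), Tufm, which delivers transfer RNA (-0.42), Lrpprc, which stabilises mitochondrial messages (-0.65), and Oxa1l, which inserts new proteins into the inner membrane (0.33). Among 27 genes for assembly and ribosomal RNA modification factors 10 fell (37%), among them Rpusd4 (-0.94), Noa1 (-0.49) and Grsf1 (-0.43). Mpv17l2 (0.63) and Ngrn (0.44) rose. Among 19 mitochondrial aminoacyl-tRNA synthetase genes and partners, 6 fell (31.6%), among them Nars2 (-0.64), Yars2 (-0.55) and Lars2 (-0.47), and Fars2 rose (0.54).

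Of 22 protein import genes 12 fell (54.5%) and none was called higher (median -0.32). The smallest p-values were those of Hspa9, the matrix chaperone that pulls proteins in (-1.05), Timm8a1, a chaperone of the intermembrane space (-1.12), and Tomm70a, a receptor on the outer membrane (-0.52). Among 14 genes of mitochondrial transcription and its nuclear regulators 7 fell (50%) and 2 rose (median -0.26). Myc, which promotes the expression of ribosomal and mitochondrial genes, fell to 1205 ± 93.6 in Irf4-/- cells, against 2637 ± 88.7 in Irf4+/+ cells (SD, n = 5 each; log2 fold change -1.13, limma adjusted p = 1.38e-10). Pprc1 (-0.52) and Tfam (-0.34) fell, and Esrra (0.35) and Mterf2 (0.25) rose, while with array medians set equal no gene of the list was called higher.

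The other 2 lists were of the cytosolic ribosome and of the respiratory chain together with the ATP synthase. Of 47 cytosolic ribosomal protein genes 3 (6.38%) fell, Rpl12 (-0.99), Rps27l (-0.62) and Rps25 (-0.38), and 8 (17%) rose, with Rpl37 (0.44), Rpl27 (0.28) and Rpl11 (0.24) at the smallest p-values (median 0.07). The Rpl12 and Rps25 probe sets had lower signals than those of Rpl11 and Rpl27. Both were well above the filter, and signals of different probe sets are not on a common scale. They averaged 402.3 ± 20.6 and 709.9 ± 41 in Irf4+/+ cells, against 10041 ± 511 for Rpl11 and 14105 ± 866 for Rpl27. The list of cytosolic ribosomal proteins moved with the scaling and with the fourth Irf4-/- sample. Its median was 0.00 with quantile normalization (4 lower, 6 higher) and 0.01 with array medians set equal (4 lower, 2 higher). Without that sample 21 of the 47 genes (44.7%) were higher and 4 lower (median 0.11). In that setting 2794 of all 12253 genes were higher and 2906 lower. Of 78 nuclear genes for respiratory chain and ATP synthase subunits 20 (25.6%) fell and 16 (20.5%) rose (median 0.03). Cox6a2 (-1.36), Cyc1 (-0.60) and Ndufa9 (-0.30) were among those that fell. Ndufa3 (0.63), Cox7a2l (0.48) and Ndufa4 (0.38) were among those that rose. Without the fourth Irf4-/- sample 18 of the 78 genes (23.1%) were lower and 28 (35.9%) higher (median 0.10). With array medians set equal the median of this list was -0.03. Differences between lists were not tested.

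**Figure D5:**
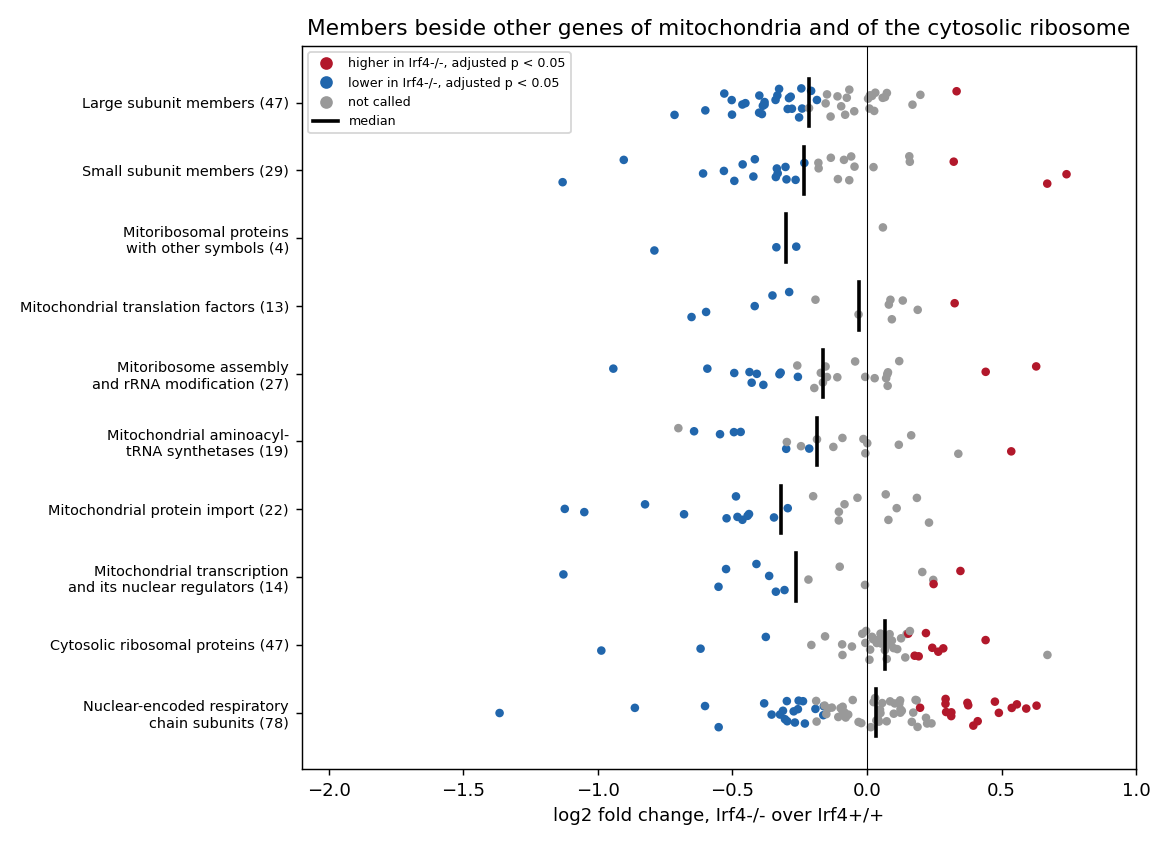
Log2 fold change, Irf4-/- over Irf4+/+, of each tested gene (points) in the 2 subunits and in 8 lists of related genes, with the number of genes in brackets and the list median as a black line. Medians lie at -0.22 and -0.23 for the subunits, at -0.32 for protein import and at 0.07 for cytosolic ribosomal proteins. The list of respiratory chain subunits, which includes ATP synthase subunits, has its median at 0.03.

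Markers of other cells moved with genotype. The 5 B cell markers used (Cd79a, Cd79b, Ms4a1, Cd22 and Pax5) were all called higher in Irf4-/- cells, with a summed signal of 37081.5 to 41678.5, against 19656.3 to 22054.8 in Irf4+/+ cells. All 7 natural killer cell markers (Ncr1, Klrk1, Klre1, Gzma, Gzmb, Prf1 and Nkg7) were higher, at 11236 to 15612.6 against 1233.1 to 1465.7, as were 4 of 6 tested macrophage markers, at 1614.4 to 1818.5 against 513.6 to 595.9. Of 4 granulocyte markers 2 were higher, at 393.4 to 697 against 61.9 to 119.5. T cell markers summed to 81.6 to 124.5 against 92.9 to 131.6, and Cd3d, Cd3e, Cd3g, Cd4, Cd14 and Mertk were under the filter. The 18S control probe sets averaged 141.6 ± 46.5 in Irf4-/- cells and 40.7 ± 16.2 in Irf4+/+ cells (SD, n = 5 each), a difference with an exact permutation p = 0.00794 (0.0317 after adjustment for 4 measures of the arrays). For Actb, the 3′ over 5′ signal ratio (a measure of RNA integrity) was 1.1 ± 0.0227 in Irf4-/- cells and 1.15 ± 0.0259 in Irf4+/+ cells (exact permutation p = 0.0238, 0.0476 adjusted). For Gapdh it was 0.859 ± 0.0404 and 0.856 ± 0.0269 in the same order (exact permutation p = 0.873), and array medians were 42.7 ± 1.87 and 40.6 ± 2.23 (exact permutation p = 0.175). The part of these markers, of the 18S signal and of the Actb ratio in the members' shift was not tested.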

How the data were processed

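RNA of 10 splenic B cell samples (5 Irf4-/-, 5 Irf4+/+) was measured on 1-colour Affymetrix arrays. The authors deposited a linear signal intensity for each probe set, computed with MAS5 per the submitters' processing notes, which give no version. The mean of each array after trimming 2% at each end was 250.0, so no further scaling was applied. Precision is limited by the number of arrays, since arrays carry no read depth.

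Of 45101 probe sets, 34945 had 1 gene symbol in the platform annotation, 932 had several and 9160 are unnamed here. Gene IDs of 34741 matched RefSeq (GRCm38.p6), through which symbols were updated. Signals were transformed to log2(signal + 7.9), 7.9 being the 20th percentile of all values, which understates changes of dim genes. Probe sets with a mean under 25.11, the 40th percentile of probe set means, were left out, and 12253 of 18193 genes were tested. A linear model with genotype as its single term was fitted in limma 3.58.1 (lmFit, eBayes with a trend) under R 4.3.3, with Benjamini-Hochberg adjustment over all genes. Single measures and ratios were compared by exact permutation.

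On simulated data for 12253 genes the fit recovered 72% of 50 genes changed 1.5-fold, 89% of 100 changed 2-fold and 98% of 50 changed 4-fold, with 6 false calls. Values were drawn independently for each gene and array, and far fewer genes were changed than the 5788 called in the data. Changes under 1.5-fold, the size seen in most members, were not simulated.

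The members and lists were chosen with earlier results of these data known. Members named in the text are, in each subunit, up to 7 called members that fell most and up to 5 that rose most, the 2 with the highest and the 1 with the lowest signal, and a set named for its roles. In each related list up to 3 called genes with the smallest p per direction are named. Alternatives were other pseudocounts, filters, scalings, variance models, array weights, a replicate block, other choices of probe set and each array left out. Probe sets shared by several symbols were left out.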

Additional observations from a re-analysis of the deposited data

Results flagged for a closer look

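Of 68 groups of 5 samples examined over 34 named members, 7 held a sample far from the other 4 by Dixon's criterion, and chance flags about 1 in 20 groups. The fourth Irf4-/- sample was the low value in 4 of them, which are the 4 members that rose: Mrps15 at 1293.6 (other Irf4-/- samples 1744.9 to 1873.9), Mrps16 at 1624.2 (1941.1 to 2002.6), Mrps21 at 792.8 (1038.4 to 1131.9) and Mrpl14 at 706.5 (949.3 to 1034.3). The fifth Irf4-/- sample was high for Mrpl20, at 1126.1 (754.4 to 856.1). The first Irf4+/+ sample was high for Mrpl1, at 502.1 (419.2 to 440.6), and for Mrpl44, at 1507.8 (1176.3 to 1252).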

How the results depend on the processing

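Counts of calls in each subunit were held the same when they stayed within 1.5 times their values. Medians were held the same when they kept their sign and moved by less than the pooled within-genotype SD of the subunit's array averages. By these rules 136 of 142 recalculations were the same. The 6 others were the number of large subunit members called higher, which became 2 with array weights, with a replicate block, and with quantile normalization without the fourth Irf4-/- sample (an alternative chosen after seeing the data), and ranged from 1 to 2 when 1 array was left out, being 2 without the fourth Irf4-/-, the first Irf4+/+ or the fifth Irf4+/+ sample. Leaving out each array gave 23 to 26 large and 13 to 16 small subunit members called lower and 2 to 4 small subunit members called higher. The replicate numbers do not pair the samples (correlations of deviations from -0.04 to 0.05 for the same number), and with the replicate block 26 large subunit members were lower and 2 higher, and 15 small subunit members were lower and 3 higher. Of the 44 called members 29 kept call and sign in all settings in which they were tested, of which 24 were tested in all 23 settings and 5 had no probe set in 1 setting. Over the 23 settings, with the 1 chosen after seeing the data among them, Mrps18a lost its call in 11 and Mrpl50 in 8. Mrps25 lost it in 7, Mrpl51 and Mrps21 in 5 each, and Mrpl36 in 4. Mrpl1, Mrpl15, Mrpl17, Mrpl27, Mrpl35, Mrpl57, Mrps10, Mrps11 and Mrps31 lost their calls only under other choices of probe set. Such choices were also among the settings in which Mrpl51, Mrps21 and Mrps25 lost theirs. Of the called members, Mrpl1 and Mrpl35 changed sign (Mrpl35 to 0.048 without probe sets of suffix _a, _s or _x). Sign changes of uncalled members named here were as follows. With array medians set equal, which moved the median of all genes to -0.06, Mrpl44 was -0.034, Mrpl13 -0.052 and Mrpl28 -0.057. With array weights Mrpl28 was -0.065. With the mean of all probe sets, Mrpl3 was 0.056, Mrpl44 -0.034, Mrpl13 -0.35 and Mrpl28 -0.38. Without probe sets of suffix _a, _s or _x, Mrpl1, called lower as reported, was 0.090, Mrpl41 -0.021 and Mrpl28 -0.61. With 1 array left out Mrpl44 ranged from -0.031 to 0.088, Mrpl13 from -0.11 to 0.073 and Mrpl28 from -0.15 to 0.13. With median centring 27 large and 16 small members were lower, and all genes split into 3270 lower and 2328 higher, against 2927 and 2861 as deposited. Counts of the related lists under other scalings and without the fourth Irf4-/- sample were added after seeing the data. The causes were not tested.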
